A study of Mus musculus with 190 samples.

Results

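Collagen transcripts were measured in whole blood of the NC/Nga mouse strain, in which conventionally housed animals can acquire a skin disease used as a model of atopic dermatitis. The collagen genes are the protein-coding genes of the deposited count table whose symbol has the form Col, number, a, number. This rule found 44 of the 55414 genes. Of these, 37 passed the filter on low counts, as did 18192 genes of all types. The 7 that did not pass were Col19a1, Col4a3, Col4a6, Col25a1, Col6a6, Col26a1 and Col6a5, and their values are given without a test.

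All 190 libraries came from wild-type males, and their ages are not stated. The conventional mice form 9 cohorts with 10 libraries at each of 2 samplings. The second sampling was on day 44 in cohorts 1, 3, 5, 7 and 9 and on day 40 in cohorts 2, 4, 6 and 8. The first sampling was on days 2, 5, 9, 12, 16, 19, 23, 26 and 30, in the order of cohorts 1 to 9. The specific-pathogen-free (SPF) mice gave 5 libraries on day 44 and 5 on day 16. Each library carries a visible dermatitis score. The score was 0 in all SPF libraries. It was 0 in 7 of 90 conventional libraries of the second sampling and in 58 of 90 of the first.

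Collagens are extracellular proteins in which chains with a repeated glycine motif wind into a triple helix. Fibroblasts, osteoblasts and chondrocytes make most of them, and circulating blood cells are not known as a main source. Fibrillar collagens such as type I and type III form the ropes of skin, tendon and bone. Type II belongs to cartilage and type X to hypertrophic cartilage at growth plates. Type IV builds the sheet of basement membranes and type VI forms beaded filaments around cells. The blood was drawn from the tail vein, and the tail holds skin, tendon, cartilage and bone, so the values are given library by library where a result turns on them.

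Promoters are shown for 3 of the genes that the results turn on, a chain of type I collagen, type III and type X. Each line is the 250 bases before the annotated start, 5′ to 3′ on the gene's strand, from RefSeq's GRCm38.p6 table, with 3 motifs in capitals. These are GGGCGG, known as the GC box, CCAAT, known as the CCAAT box, and TATAAA, known as the TATA box. Col1a2 lies on the plus strand at chr6:4505368-4505617, Col3a1 on the plus strand at chr1:45311288-45311537 and Col10a1 on the plus strand at chr10:34389731-34389980.
Col1a2: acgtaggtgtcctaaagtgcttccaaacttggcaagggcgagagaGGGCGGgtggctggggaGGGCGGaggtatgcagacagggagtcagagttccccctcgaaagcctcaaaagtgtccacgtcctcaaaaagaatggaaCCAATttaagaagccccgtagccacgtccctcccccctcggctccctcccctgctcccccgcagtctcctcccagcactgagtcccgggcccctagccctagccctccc
Col3a1: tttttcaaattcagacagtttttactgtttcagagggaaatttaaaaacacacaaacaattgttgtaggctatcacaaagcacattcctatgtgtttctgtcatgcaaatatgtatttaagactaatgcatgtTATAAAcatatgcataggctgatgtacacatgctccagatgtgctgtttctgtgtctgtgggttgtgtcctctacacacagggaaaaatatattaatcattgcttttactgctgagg
Col10a1: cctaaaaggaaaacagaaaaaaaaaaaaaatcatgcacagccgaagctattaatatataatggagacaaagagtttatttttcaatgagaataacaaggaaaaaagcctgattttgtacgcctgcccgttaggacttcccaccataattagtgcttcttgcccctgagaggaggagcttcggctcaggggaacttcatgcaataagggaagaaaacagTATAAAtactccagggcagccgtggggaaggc
The table held 38 promoters of 35 of the 44 collagen genes. On either strand, GGGCGG (or CCGCCC) was in 22 of 38, or 57.9%, against 32.7% of all 32851 promoters. CCAAT (or ATTGG) was in 13 of 38, or 34.2%, against 33.8%. TATAAA (or TTTATA) was in 5 of 38, or 13.2%, against 12.4%. In the sequences above, Col1a2 holds 2 copies of GGGCGG and 1 of CCAAT, and its TATAAA search found no match. Col3a1 and Col10a1 each hold 1 TATAAA, which in Col10a1 lies 32 bases before the start and in Col3a1 farther away. These matches describe the letters alone.

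Total counts ran from 21444129 to 71967299 a library, with a median of 36448181.5. The median share of counts on globin genes was 3.18% to 4.21% by cohort in cohorts 1 to 4, 6.84% in cohort 5, 7.36% to 8.11% in cohorts 6 to 9 and 3.59% in SPF libraries. The share of mitochondrial rRNA split the cohorts the same way, with medians of 5.88% to 8.13% in cohorts 1 to 4, 14.3% to 16.7% in cohorts 5 to 9 and 7.38% in SPF libraries. Replicate 3 of SPF day 16 stood apart with 45.3% globin, and replicate 3 of SPF day 44 with 185.3 CPM of cartilage markers. The pan-leukocyte gene Ptprc, which marks blood cells, was read in every library, at 745 to 2697 CPM. Each first day belongs to 1 cohort and SPF housing to 1 cohort, so day, housing and cohort cannot be told apart, and p-values measure the spread between libraries only. In bulk blood, fewer cells of a type and less RNA per cell cannot be told apart.

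Collagens were a small and uneven part of the blood transcriptome. Levels are compared between genes in deposited TPM, which are scaled by gene length, and between libraries in CPM, counts scaled to the library's total with edgeR's TMM factors. Col6a3, a chain of type VI collagen, had the highest mean of the 44, 2.06 TPM over 190 libraries. Col3a1, the type III chain, followed with 1.29 TPM. The type I chains Col1a2 and Col1a1 averaged 0.624 and 0.518 TPM. Col11a2, a chain of type XI collagen, averaged 0.328 TPM and Col6a4, a further type VI chain, 0.320 TPM. The other 38 averaged 0.142 TPM or less. Reads were found in all 190 libraries for Col6a3, Col3a1, Col11a2, Col6a4 and Col5a1. At the other end, Col26a1 had reads in 13 libraries, Col6a5 in 20, Col6a6 in 27 and Col25a1 in 29.

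The order of the levels differed between samplings. In the second sampling, Col6a3 averaged 2.12 TPM and the next gene, Col3a1, 0.381 TPM. In the first sampling, Col3a1 averaged 2.19 TPM, beside 2.02 TPM for Col6a3, and the SPF means were 1.33 TPM for Col3a1 and 1.77 TPM for Col6a3. Col1a2 averaged 0.113 TPM in the second sampling, 1.16 TPM in the first and 0.433 TPM in SPF libraries. Type III and type I collagen thus stood far lower in the second sampling than in the first, while Col6a3 stood at a similar level in both.

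**Figure D1:**
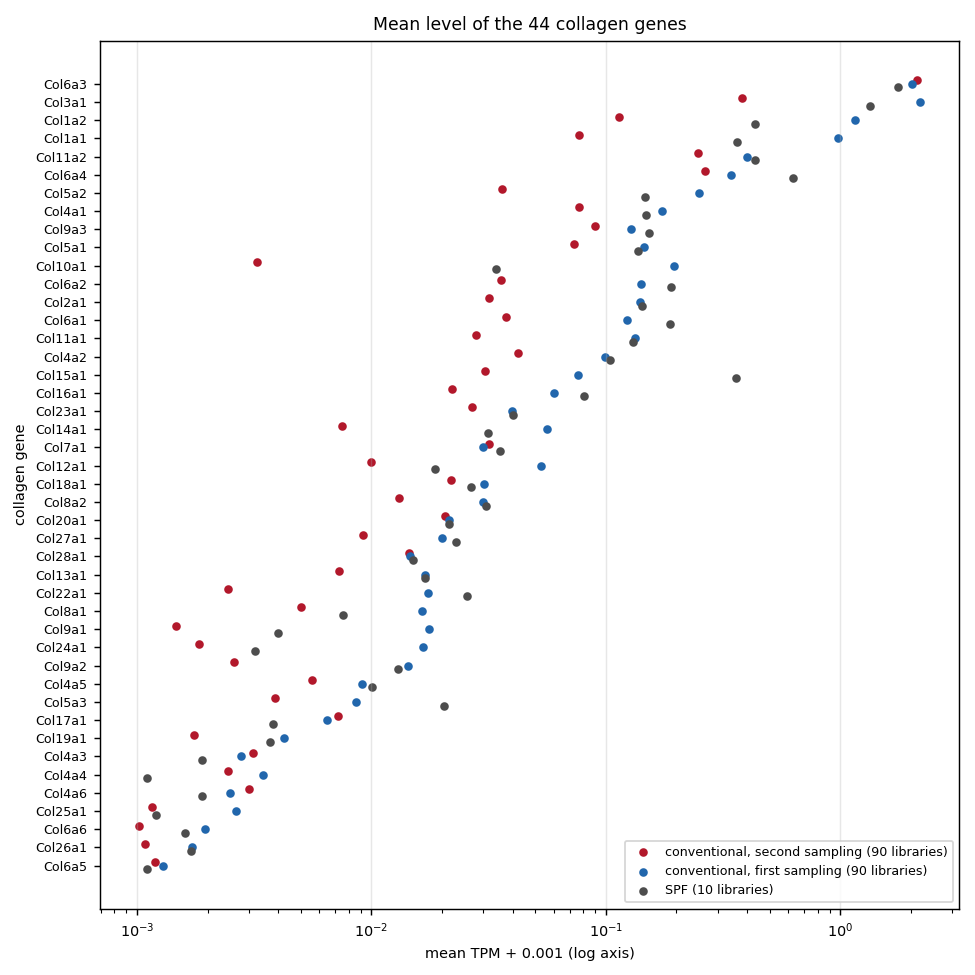
Mean deposited TPM + 0.001 (log axis) of each of the 44 collagen genes, for 90 conventional libraries of the second sampling, 90 of the first and 10 SPF libraries. Col6a3 lies near 2 TPM in all sets, whereas Col10a1 averages 0.00226 TPM in the second sampling and 0.195 TPM in the first.

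Most collagen genes were lower in the second sampling of the conventional cohorts than in the first. With cohort as a covariate, 31 of the 37 tested passed edgeR's quasi-likelihood test at a Benjamini-Hochberg adjusted p under 0.05, 29 lower and 2 higher, whereas 62.3% of all genes tested passed, 31.2% lower and 31% higher. The median log2 change was −1.59 over the collagen genes tested and −0.02 over all genes. Without the filter 35 of 44 passed, 33 of them lower, against 41.5% of all genes. The 6 uncalled genes were Col4a4, Col4a5, Col6a4, Col7a1, Col28a1 and Col17a1. Values below are CPM as lowest, median and highest library, and changes are log2 ± SE from edgeR.

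All 11 fibrillar collagens fell. Col1a1 (ENSMUSG00000001506.11, GRCm39 chromosome 11, 94827050 to 94843868, plus strand), which encodes the first chain of type I, had 0, 0.603 and 9.44 CPM in the second sampling and 0.356, 5.25 and 76.4 CPM in the first. The groups overlap, but the second-sampling median lies near the lowest first-sampling library. Col1a1 fell by 2.95 ± 0.26 (adjusted p = 1e-20). Col1a2 (ENSMUSG00000029661.17, chromosome 6, 4504814 to 4541544, plus strand), which encodes its partner chain, had 0, 1.01 and 14.4 CPM in the second sampling and 0.868, 9.05 and 125.1 CPM in the first. Its change was −2.90 ± 0.25, close to that of Col1a1. Col3a1 (ENSMUSG00000026043.19, chromosome 1, 45350698 to 45388866, plus strand) had 0.602, 3.69 and 37.5 CPM in the second sampling and 2.81, 21.6 and 219.8 CPM in the first. It was read in every library at both samplings and fell by 2.40 ± 0.22.

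Type V collagen regulates fibril diameter. Its chain Col5a2 had 0, 0.519 and 4.70 CPM in the second sampling and 0.531, 3.18 and 32.7 CPM in the first (−2.34 ± 0.23). Col5a1 was lower by a smaller amount, with medians of 0.78 CPM in the second sampling and 1.56 CPM in the first (−0.96 ± 0.19). Col5a3 was at 0 in 63 of 90 libraries of the second sampling and 32 of 90 of the first, and fell by 1.30 ± 0.37. All 3 type V genes thus fell. Col2a1 (ENSMUSG00000022483.18, chromosome 15, 97873483 to 97902576, minus strand), the cartilage collagen, was at 0 in 74 libraries of the second sampling and 21 of the first. Its highest libraries had 6.08 CPM in the second sampling and 18.1 CPM in the first, and it fell by 2.94 ± 0.59. Col11a1, found with type II in cartilage fibrils, had medians of 0.0255 CPM in the second sampling and 0.636 CPM in the first (−2.58 ± 0.44). The other type XI chain, Col11a2 (ENSMUSG00000024330.18, chromosome 17, 34258411 to 34285659, plus strand), kept 2.42 CPM in the second sampling, against 3.07 CPM in the first (−0.45 ± 0.09). Col24a1 and Col27a1, minor fibrillar collagens, fell by 2.41 ± 0.36 and by 1.18 ± 0.24.

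The network formers of short chains fell too, and Col10a1 had the largest fall of the 37. Col10a1 (ENSMUSG00000039462.5, chromosome 10, 34265977 to 34273081, plus strand), which encodes type X collagen, was at 0 in 70 of 90 libraries of the second sampling and in 12 of 90 of the first. It had 0, 0 and 0.649 CPM in the second sampling and 0, 0.797 and 16.9 CPM in the first, or 91 counts in all against 8788. The change was −5.26 ± 0.37 (adjusted p = 3.6e-27). Col10a1 overlaps the coding gene Nt5dc1, and the sources used here do not say whether counting used strand. The type VIII genes Col8a1 and Col8a2, whose products lie in vessel walls and the cornea, fell by 1.68 ± 0.32 and by 1.08 ± 0.20.

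Among the 6 basement membrane genes, the pair that forms the common type IV network fell and the rarer chains did not pass or were not tested. Col4a1 (ENSMUSG00000031502.12, chromosome 8, 11248423 to 11362826, minus strand) had 0, 0.61 and 3.10 CPM in the second sampling and 0.242, 1.75 and 8.21 CPM in the first (−1.59 ± 0.13). Col4a2 had medians of 0.602 CPM in the second sampling and 1.24 CPM in the first (−1.18 ± 0.12). These genes lie head to head and overlap by 22 bases. Col4a4 and Col4a5 changed by −0.58 ± 0.36 and −0.59 ± 0.28 and did not pass, and Col4a3 and Col4a6 had medians of 0 CPM at both samplings.

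Type VI collagen did not behave as a unit. Col6a3 (ENSMUSG00000048126.17, chromosome 1, 90693645 to 90771693, minus strand) had 13.8, 38.99 and 103.6 CPM in the second sampling and 12.2, 30.1 and 111.3 CPM in the first. The ranges nearly coincide, and the rise of 0.35 ± 0.09 passed the test (adjusted p = 0.00016). Col6a1 and Col6a2, which encode the chains that join the Col6a3 product in the standard type VI protein, had medians of 0.157 and 0.0995 CPM in the second sampling and 0.486 and 0.455 CPM in the first. They fell by 1.96 ± 0.36 and by 2.01 ± 0.40. Col6a4 (ENSMUSG00000032572.10, chromosome 9, 105866653 to 105973982, minus strand) had 1.04, 2.96 and 5.24 CPM in the second sampling and 1.39, 3.10 and 4.94 CPM in the first, a change of −0.02 ± 0.06 that did not pass. Col6a5 and Col6a6 had medians of 0 CPM at both samplings.

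Of the 9 fibril-associated collagens, which coat or bridge fibrils, 7 of the 8 tested fell and 1 rose. Col14a1 and Col12a1, found along type I fibrils in skin and tendon, fell by 2.61 ± 0.27 and by 2.03 ± 0.27. Col12a1 had medians of 0.164 CPM in the second sampling and 0.791 CPM in the first. Col22a1, known from tissue junctions, fell by 3.05 ± 0.36, and was at 0 in 72 libraries of the second sampling and 26 of the first. The cartilage type IX genes Col9a1 and Col9a2 were at 0 in 82 and 85 libraries of the second sampling, and in 43 and 57 of the first. They fell by 3.41 ± 0.40 and by 2.36 ± 0.39. Col9a3, the third chain of type IX, kept a median of 0.426 CPM in the second sampling, against 0.540 CPM in the first (−0.35 ± 0.13), and it overlaps the coding gene Tcfl5. Col16a1 fell by 2.13 ± 0.31. Col20a1 rose by 0.52 ± 0.19, with medians of 0.257 CPM in the second sampling and 0.154 CPM in the first. Col19a1 was at 0 in 73 libraries of the second sampling and 56 of the first.

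The remaining classes were mixed. The multiplexins Col15a1 and Col18a1, whose cleaved ends include endostatin, fell by 1.64 ± 0.21 and by 0.59 ± 0.20, and Col18a1 overlaps the coding gene Slc19a1. Among the transmembrane collagens, Col13a1 fell by 1.11 ± 0.31 and Col23a1 by 0.36 ± 0.10. Col17a1, a hemidesmosome protein of basal keratinocytes, changed by −0.45 ± 0.35 and did not pass, and Col25a1 was at 0 in 82 libraries of the second sampling and 70 of the first. Col7a1, the anchoring fibril collagen of skin, changed by 0.18 ± 0.17 and Col28a1 by 0.24 ± 0.21, and neither passed. Col26a1 had its highest library at 0.0268 CPM in the second sampling and 0.0939 CPM in the first.

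**Figure D2:**
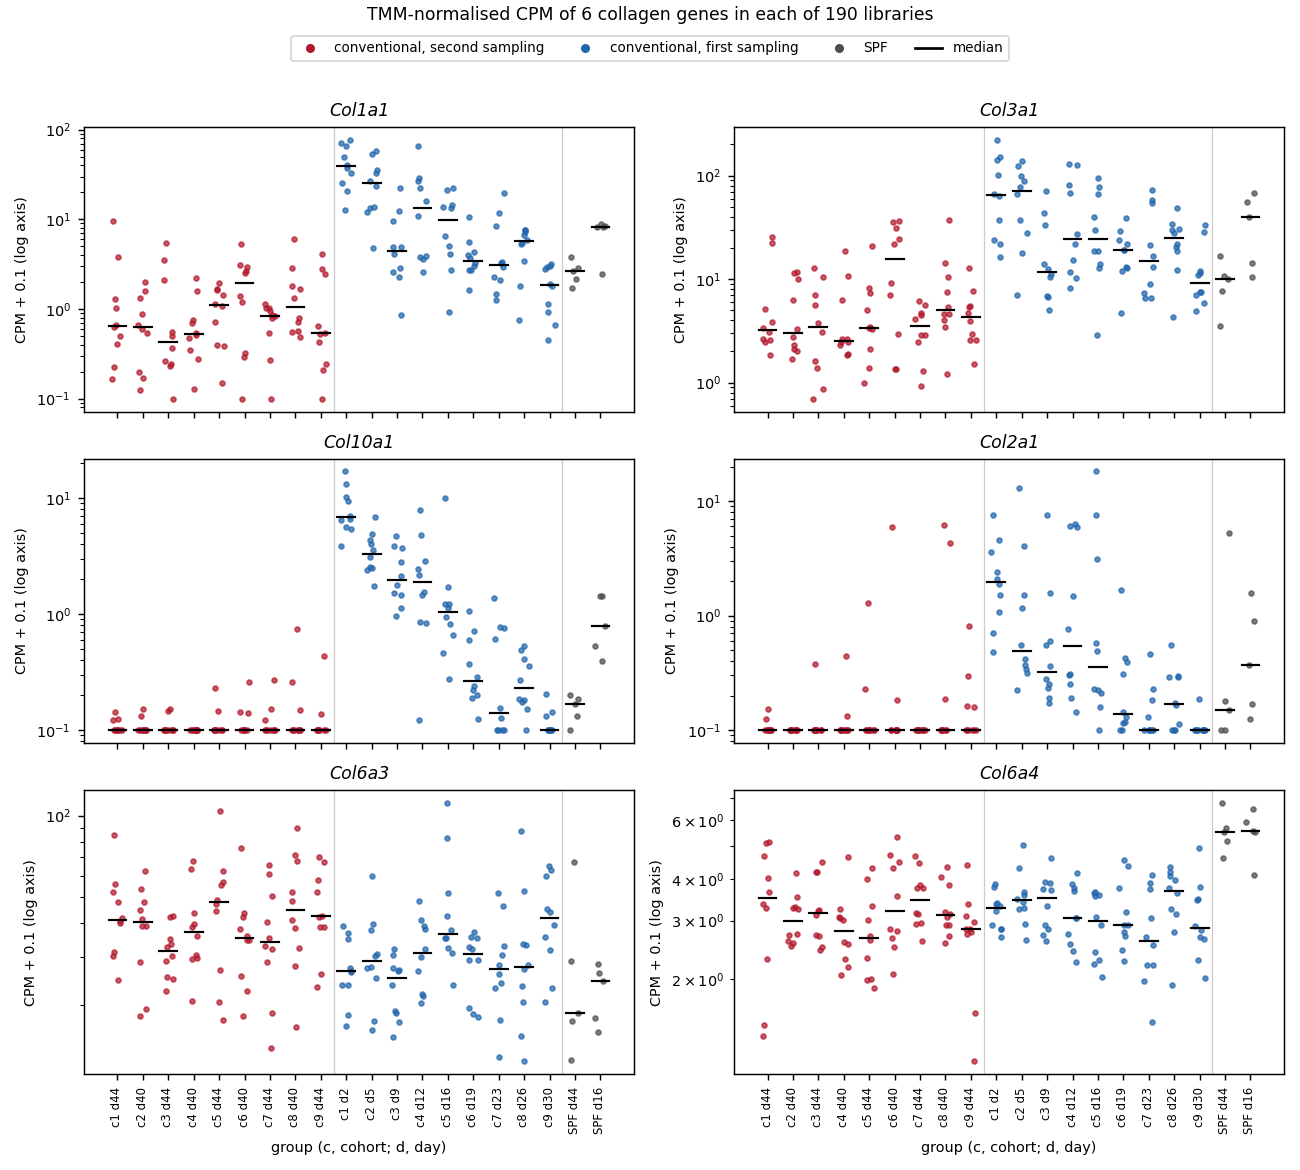
TMM-normalised CPM + 0.1 (log axis) of 6 collagen genes in each of 190 libraries, grouped as second sampling, first sampling and SPF, with cohort (c) and day (d) under each group and a line at the median. Col1a1, Col3a1 and Col10a1 are lower in the second sampling, and Col2a1 shows single high libraries. Col6a3 and Col6a4 are nearly level between the samplings, and the medians of Col6a4 are higher in the SPF groups than in the conventional ones.

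The fall was not of 1 size in all cohorts. In the fit with a change for each cohort, the numbers of collagen genes called in cohorts 1 to 9 were 28, 29, 19, 24, 22, 1, 9, 0 and 0. The share of all genes called in the same cohorts was 39.1%, 47.2%, 25.3%, 31%, 14.6%, 21.6%, 2.95%, 1.35% and 7.14%. In cohorts 8 and 9, where edgeR called none of the 37, 10 and 4 had an unadjusted p under 0.05. These counts are given without the share over all genes, so they are not read as a result about collagens. DESeq2 called 1 and 0 there, with no adjusted p for 17 and 8 of the 37. In cohort 6, where 21.6% of all genes passed, the 1 collagen gene was Col10a1 (−3.46 ± 0.84). Over the 9 cohorts, 32 collagen genes passed in at least 1 and 25 passed as lower in at least 3. The same counts were not made over all genes, so they have no share to be set against.

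Col3a1, Col1a2, Col1a1, Col4a1, Col4a2 and Col22a1 had a negative estimate in all 9 cohorts. Col1a1 had cohort estimates of −5.37 to −0.52 and was called in 6 cohorts. Col3a1 had estimates of −3.76 to −0.21 and was also called in 6. Col6a3 had a positive estimate in all 9 but passed in cohort 1 alone (0.73 ± 0.26), where Col20a1 was higher by 2.03 ± 0.55. The estimates for other genes differed in sign between cohorts or were set by groups at 0, as for Col10a1 in cohort 4, which was at 0 in all 10 libraries of day 40 and had 0.0212, 1.77 and 7.83 CPM on day 12.

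Complete separation of the samplings was seen mainly in the early cohorts. In cohort 1 every library of day 44 lay below every library of day 2 for 10 collagen genes, against 1.2% of all genes. In cohorts 2 to 5 this held for 12, 2, 4 and 2 collagen genes, against 3.11%, 0.561%, 0.247% and 0.0605% of all genes. Cohort 7 had 2, Col1a1 and Col3a1, against 0.0165%, and cohorts 6, 8 and 9 had 0, against 0.066%, 0.011% and 0.0055%. Col10a1 separated the samplings in each of cohorts 1 to 5, and no collagen gene lay wholly higher in the second sampling in any cohort.

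The cohorts with low globin shares and early first days had the larger change. For cohorts 1 to 4 minus cohorts 6 to 9, the difference of the changes passed for 24 of 37 collagen genes, all with a lower value in cohorts 1 to 4, whereas 11.1% of all genes passed in that direction and 25.3% in either. Col11a1 differed by −5.23 ± 0.77, Col6a2 by −4.38 ± 0.67 and Col1a1 by −2.71 ± 0.43. Within cohorts 1 to 4 Col1a1 changed by −4.30 ± 0.39, and within cohorts 6 to 9 by −1.58 ± 0.30. In cohorts 6 to 9 alone, 8 of the 37 were called, which is close to the share of all genes, 19.3%. The 8 were Col10a1, Col1a2, Col1a1, Col3a1, Col14a1, Col5a2, Col4a1 and Col4a2. Col2a1 and Col11a1 had positive estimates there, 1.62 and 0.19, neither of which passed. The 2 sets of cohorts differ in first day and in technical shares at once, so these cannot be told apart.

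**Figure D3:**
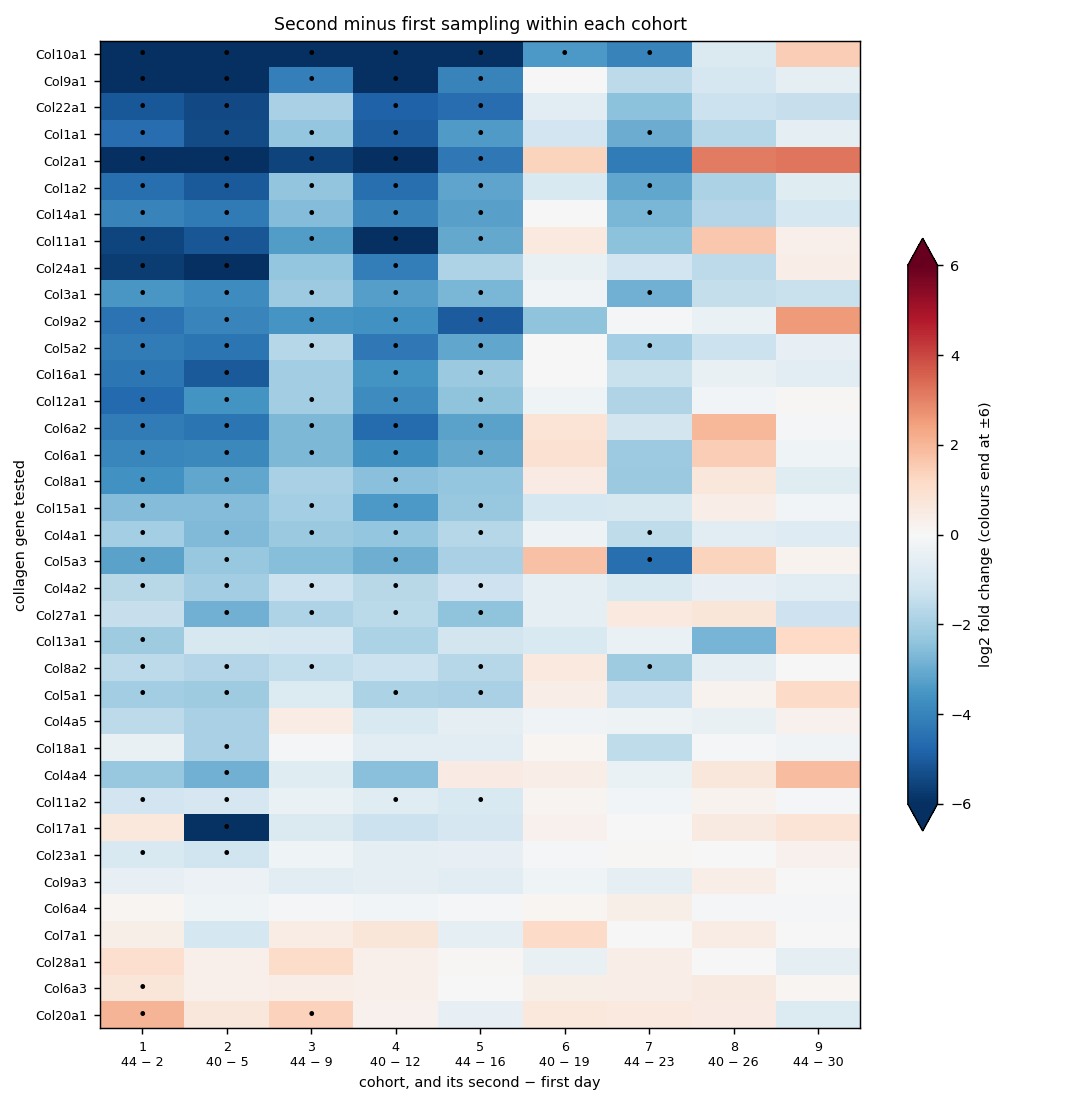
Colour shows the log2 change, second minus first sampling, of the 37 tested collagen genes (rows) in each of 9 cohorts (columns, with the days subtracted), and a dot marks an edgeR adjusted p under 0.05. Dots fill cohorts 1 to 5, thin out in cohort 7 and are 1 in cohort 6 and 0 in cohorts 8 and 9.

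Within the first sampling, later days had fewer collagen transcripts. Over 90 libraries, 33 of 37 collagen genes passed a linear trend per 10 days, 31 lower and 2 higher, whereas 52.6% of all genes passed, 28.3% lower and 24.3% higher. The median slope was −0.81 over the collagen genes tested and −0.01 over all genes. A test of any difference among the 9 days called 28 of 37, against 57.9% of all genes. Without the filter, 36 of 44 passed the trend, against 39.3%. Col4a5, Col6a3, Col6a4 and Col7a1 did not pass.

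The summed CPM of the 44 genes had medians of 274, 229.7, 78.1, 131.9, 155.8, 71.9, 65.9, 82.1 and 70.5 CPM on days 2, 5, 9, 12, 16, 19, 23, 26 and 30. The sum did not fall evenly, since day 9 lay below days 12 and 16. Col1a1 had medians of 39.1, 25.3, 4.38, 13.2, 9.74, 3.37, 2.98, 5.60 and 1.75 CPM on the same days. On day 2 its libraries ran from 12.6 to 76.4 CPM and on day 30 from 0.356 to 3.10 CPM. The slope of Col1a1 was −1.39 ± 0.15 per 10 days (edgeR adjusted p = 1.2e-13). Col3a1 had medians of 64.9, 71.3, 11.7, 24.2, 24.1, 19.0, 14.8, 24.8 and 9.14 CPM, with a slope of −0.81 ± 0.14. Both genes have day 9 out of order.

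Col10a1 had the steepest slope, −2.37 ± 0.18 per 10 days. Its medians were 6.75, 3.22, 1.85, 1.77, 0.935, 0.163, 0.0407, 0.129 and 0 CPM from day 2 to day 30, lower from each day to the next except at day 26. Day 2 libraries ran from 3.78 to 16.9 CPM and day 30 libraries from 0 to 0.104 CPM. The cartilage genes Col2a1, Col9a1 and Col11a1 had slopes of −2.04 ± 0.36, −1.87 ± 0.27 and −1.73 ± 0.25. Col22a1, Col9a2, Col6a2, Col24a1 and Col16a1 had slopes between −1.51 and −1.38. The 2 slopes above 0 were those of Col20a1, 0.43 ± 0.14, and Col28a1, 0.42 ± 0.15. Within cohorts 1 to 4 the slope of Col28a1 was −0.15.

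Fewer genes passed the trend in subsets of the libraries. Within cohorts 1 to 4 (days 2 to 12) 12 of 37 passed, against 23.2% of all genes, with Col10a1 at −1.84 ± 0.38 and Col1a1 at −1.57 ± 0.52. Within cohorts 6 to 9 (days 19 to 30) 0 passed, against 2.74%. With globin and mitochondrial rRNA shares as covariates 19 passed, against 35.4% of all genes, and Col1a1 had −1.07 ± 0.20. In libraries of score 0 alone 20 passed, against 35.2%, among them Col1a1 (−1.33 ± 0.26) and Col10a1 (−1.91 ± 0.25), so both had the trend in libraries with no visible dermatitis. Without days 2 and 5 the count was 24, against 28.9%, and 11 of 12 named calls kept their direction and side of the threshold.

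Conventional and SPF libraries of day 16 differed in 1 collagen gene. Col6a4, whose human counterpart is not an intact gene, had 1.94, 2.89 and 3.55 CPM in the 10 conventional libraries. The 5 SPF libraries had 5.82, 5.41, 5.48, 4.00 and 6.38 CPM. Every conventional library lay below every SPF library, and the difference was −0.92 ± 0.19 (edgeR adjusted p = 0.014), while 0.533% of all genes passed, 0.154% as lower. The share of all genes separated in this way was not counted. No other collagen gene passed. Col1a1 had 0.836, 9.74 and 21.99 CPM in conventional libraries, and 8.11, 8.06, 2.32, 8.66 and 8.38 CPM in SPF libraries, where the low value belongs to the library with 45.3% globin. The call of Col6a4 was lost without SPF replicate 5, and when replicate number entered the fit as a block.

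On day 44, 10 of the 37 were lower in the 50 conventional libraries than in the 5 SPF libraries and 0 were higher, whereas 20.1% of all genes passed, 10.2% lower. SPF replicate 3 set much of this count. Col6a1 had 0, 0.0995 and 3.04 CPM in conventional libraries, and 0.021, 0.0832, 9.40, 0.148 and 0.767 CPM in SPF replicates 1 to 5. Col6a2 had 0, 0.0841 and 3.14 CPM in conventional libraries, and 0.126, 0.0333, 9.15, 0.223 and 0.376 CPM in SPF libraries. For both genes the third SPF library was the high one and the others lay within the conventional range. Col2a1 was at 0 in 41 of 50 conventional libraries, with a highest value of 1.19 CPM, and had 0, 0, 5.21, 0.0495 and 0.0783 CPM in SPF libraries. Col11a1 had 0, 0 and 4.28 CPM in conventional libraries, and 0.629, 0.183, 9.01, 0.297 and 0.157 CPM in SPF libraries.

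The differences with all libraries were −4.21 ± 0.87 for Col2a1, −3.33 ± 0.74 for Col6a2, −3.23 ± 0.73 for Col6a1 and −3.23 ± 0.84 for Col11a1. Without SPF replicate 3, Col2a1 had 0.69 and Col6a2 0.014. Then 4 of the 37 collagen genes passed, which is about the share of all genes, 11%. These were Col5a3 (−3.37 ± 0.73), Col22a1 (−2.42 ± 0.80) and Col6a4 (−0.78 ± 0.22), which were lower, and Col6a3 (1.07 ± 0.33), which was higher. Col6a3 had 13.8, 40.1 and 103.6 CPM in conventional libraries, and 12.4, 28.9, 67.2, 18.6 and 17.3 CPM in SPF replicates 1 to 5. Its call thus also turned on SPF replicate 3, the high one. Acan, the aggrecan core protein of cartilage, was lower in conventional libraries by 5.39 with all SPF libraries, Hapln1, its link protein, by 3.23, and Sox9, the chondrocyte transcription factor, by 3.45. The part of cartilage RNA in SPF replicate 3 in these differences is measured here only by leaving that library out.

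Col6a4 was the gene that differed on both days. On day 44 it had 1.04, 3.01 and 5.06 CPM in conventional libraries, and 4.51, 5.41, 6.65, 5.59 and 5.10 CPM in SPF libraries (−0.86 ± 0.20, adjusted p = 0.0015). The groups overlap by the SPF library at 4.51 CPM. Cohort 5 alone gave −1.03 ± 0.19 on that day. Col5a3, a type V chain, was at 0 in 38 of 50 conventional libraries and had 0, 0.0666, 0.749, 0.247 and 0.485 CPM in SPF libraries (−3.98 ± 0.65). Col15a1 had 0, 0.155 and 0.735 CPM in conventional libraries, and 0.482, 0.433, 3.47, 0.470 and 0.501 CPM in SPF libraries (−2.51 ± 0.51). SPF replicate 3 was again the high one, and without it the difference was −1.34 ± 0.61 and did not pass. Col16a1 (−2.57 ± 0.74), Col22a1 (−2.12 ± 0.77) and Col4a1 (−1.09 ± 0.39) complete the 10. The call of Col16a1 was lost without SPF replicate 3, that of Col22a1 without any 1 of the other 4 SPF libraries and that of Col4a1 without any 1 of the 5. Col1a1 had a median of 0.549 CPM in conventional libraries, and 2.05, 1.63, 2.77, 3.66 and 2.54 CPM in SPF libraries, a difference that did not pass (−1.14 ± 0.68).

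**Figure D4:**
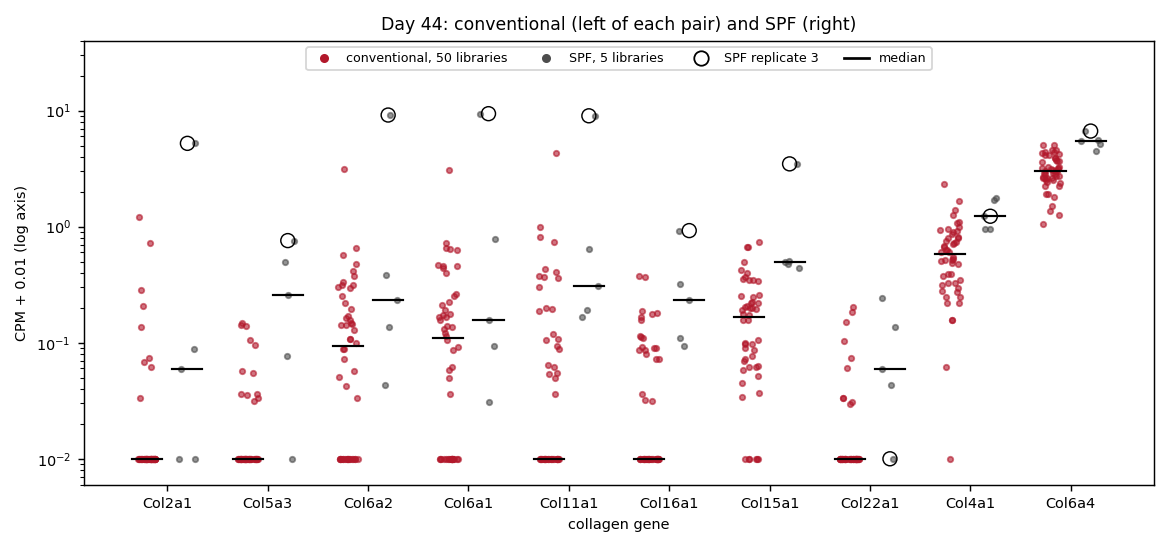
CPM + 0.01 (log axis) on day 44 of the 10 collagen genes that passed the test, with 50 conventional libraries at the left of each pair and 5 SPF libraries at the right, lines at medians and rings at SPF replicate 3. The ring lies far above the other SPF points for Col2a1, Col6a1, Col6a2, Col11a1 and Col15a1, while for Col6a4 the SPF points from 4.51 to 6.65 CPM stand at the upper end of the conventional ones or above.

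From day 16 to day 44, collagens fell in conventional cohort 5, and no collagen gene passed the test in SPF mice. In cohort 5, 17 of 37 were lower and 0 higher on day 44, whereas 12.6% of all genes passed, 4.54% as lower. Col1a1 had 0.0486, 1.00 and 1.85 CPM on day 44 and 0.836, 9.74 and 21.99 CPM on day 16 (−3.43 ± 0.50). Col3a1 changed by −2.79 ± 0.59 and Col1a2 by −3.20 ± 0.50. Col10a1 had 0, 0 and 0.130 CPM on day 44 and 0.174, 0.935 and 9.90 CPM on day 16, without overlap. Col9a2 was at 0 in all 10 libraries of day 44, but also in 8 of 10 of day 16, where its highest library had 0.961 CPM.

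In SPF libraries, Col1a1 had the values above on day 44 and on day 16, with medians of 2.54 CPM on day 44 and 8.11 CPM on day 16. Col3a1 had 10.6, 3.40, 7.51, 9.87 and 16.5 CPM on day 44 and 39.8, 67.7, 10.4, 14.2 and 55.9 CPM on day 16. Col10a1 had 0, 0.0666, 0.0832, 0.099 and 0.0313 CPM on day 44 and 0.293, 1.33, 0.693, 1.33 and 0.435 CPM on day 16, again without overlap. edgeR called 0 of all genes in this comparison, where the unadjusted p was under 0.05 for 4 collagen genes and 1052 genes in all. DESeq2 also called 0. In a fit blocked on replicate number Col10a1 alone passed, at −3.86 ± 0.63 (edgeR adjusted p = 0.046), or 0.0055% of all genes. The difference between the changes of cohort 5 and of SPF mice was called by edgeR for 0 of 37 and 0 of all genes, with 9 and 1892 under an unadjusted p of 0.05. DESeq2 called 0 of 37 and 52 in all, but gave 24 of the 37 no adjusted p, so these could not be called. A fall in conventional and not in SPF mice is therefore not shown.

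Among the 90 libraries of the second sampling, 5 collagen genes had a slope on the dermatitis score with cohort as a covariate, whereas 37.6% of all genes did. Col1a1 changed by −0.58 ± 0.16 per score unit, Col1a2 by −0.54 ± 0.15, Col11a1 by −0.78 ± 0.28 and Col22a1 by −0.84 ± 0.26, and Col6a3 by 0.18 ± 0.06. The share is below that of all genes. Col1a1 had medians of 1.10, 1.21, 1.35, 0.557 and 0.395 CPM at scores 0, 0.5, 1, 2 and 3, over 7, 5, 11, 27 and 39 libraries, and all these ranges overlap. The 1 library of score 4 had 0.460 CPM. Col6a3 had medians of 28.5, 39.9, 32.8, 40.2 and 40.6 CPM at the same scores. Within cohorts 1 to 4 the slope of Col1a1 was −1.02 ± 0.24 and 7 collagen genes passed, against 30.8% of all genes. Within cohorts 6 to 9 edgeR called 0 of 37, against 0% of all genes. Without libraries of score 0 or 0.5 the 5 calls were lost and Col2a1 alone passed, at 2.38 ± 0.71, against 17% of all genes. In the 60 first-sampling libraries of days 12 to 30, edgeR called 0 of 37 on the score, against 9.94% of all genes. The unadjusted p was under 0.05 for 2 of the 37, given without the share over all genes. DESeq2 called 0, and gave 17 of the 37 no adjusted p.

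The collagen genes fell into groups by how they varied over the 190 libraries. Spearman correlations over libraries, given here as descriptions, share library depth and scaling. Col1a1 followed Col1a2 (0.96), Col5a2 (0.93) and Col3a1 (0.88) most closely, then Col11a1 and Col12a1 (both 0.81), Col14a1 and Col4a1 (both 0.79) and Col10a1 (0.78). Its correlation with Col6a3 was −0.26, with Col6a4 0.11 and with Col7a1 0.03. Neighbouring genes did not always vary together. Col3a1 and Col5a2, which lie 24614 bases apart on chromosome 1, had 0.92, Col4a1 and Col4a2 had 0.74 and Col6a2 and Col6a1 had 0.79. Col4a4 and Col4a3, which lie 71 bases apart, had 0.06 and Col4a6 and Col4a5 had 0.05, both pairs at few reads.

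Outside the collagens, the genes most like the summed CPM of Col1a1 and Col1a2 were Sparc (0.95), a collagen-binding matrix protein, Lum (0.86), a proteoglycan on fibrils, Lox (0.85), which cross-links collagen, Bgn (0.85), Cdh11 (0.85), Fstl1 (0.84), Amotl1 (0.84), Postn (0.83), Nrep (0.83) and Adamts2 (0.83), which trims procollagen. Those most like Col10a1 were Arhgap29 (0.79), Fabp4 (0.79), Sox4 (0.78), C130074G19Rik (0.78) and Cav1 (0.78). For genes chosen after their values were seen, Col2a1 was most like Acan (0.79), Col6a3 like Agrn (0.60) and Col6a4 like Shisa5 (0.65).

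The machinery around collagen moved in parts with it. Of 32 tested genes for collagen processing and cross-linking, 22 were lower and 5 higher in the second sampling than in the first, against the shares of all genes given above. Serpinh1, the collagen chaperone, fell by 2.25 ± 0.24, Adamts2 by 2.05 ± 0.23, Bmp1, which removes the carboxyl end of procollagen, by 1.93 ± 0.26 and Pcolce, its enhancer, by 1.92 ± 0.27. Of 16 fibril-associated matrix genes, 14 fell and 1 rose, among them Ogn (−2.51 ± 0.27), Sparc (−2.45 ± 0.20), Fmod (−2.44 ± 0.46) and Eln (−2.33 ± 0.22). Of 11 collagen receptor genes 2 fell, Ddr2 (−2.66 ± 0.40) and Mrc2 (−1.84 ± 0.38), and 5 rose, including Fcer1g (0.60 ± 0.07), a signalling partner of the platelet collagen receptor. Of 11 degradation genes 5 fell and 3 rose. Counted in either direction, receptor genes passed at about the share of all genes, 62.3%, and degradation genes at little more. Mmp8 and Mmp9, collagenase and gelatinase of neutrophils, rose by 2.07 ± 0.22 and by 1.19 ± 0.11, and Mmp2, a gelatinase of stromal cells, fell by 1.67 ± 0.23.

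Markers of several other tissues also differed between samplings, where 62.3% of all genes passed, 31.2% lower and 31% higher. In the second sampling, 9 of 11 tested osteoblast and bone genes were lower, led by Bglap2 and Bglap (−3.86 and −3.66), which encode osteocalcins, and 1 was higher. Their summed CPM had a median of 8.75 in cohort 1 on day 44 and 40.9 on day 2. All 5 tested cartilage markers of 12 were lower, as were 8 of 10 dermal fibroblast markers, 6 of 10 keratinocyte markers and 2 of 4 tendon markers. The fibroblast marker Pi16 was higher (1.10 ± 0.11). Of 10 endothelial markers 6 were lower and 2 higher, and of 8 muscle markers 2 were lower and 3 higher. Counted in either direction, keratinocyte, tendon and muscle markers passed at about the share of all genes or less. The muscle sum ran from 3.09 to 16.2 CPM over all libraries, with a median of 6.05 CPM. All 10 platelet markers and 7 of 10 leukocyte markers rose, and 3 leukocyte markers fell. The summed leukocyte markers had medians of 5638 to 9926 CPM in the groups of the second sampling, 1664 CPM on day 2, 5813 CPM on day 30, 2245 CPM in SPF libraries of day 44 and 1825 CPM in those of day 16. Over 190 libraries Col1a1 had a Spearman correlation of −0.66 with this sum, 0.60 with the cartilage sum and −0.0047 with the fibroblast sum. The fibroblast sum, with a median of 38.6 CPM, is weighted to Pi16 and Thy1, with medians of 20.9 and 8.72 CPM. Its correlation does not describe the fibroblast markers that fell. The part of these cell types and of tail tissue in the collagen values was not tested.

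Cartilage markers were high in a minority of libraries, more often in the first sampling than in the second. Their sum over 12 genes passed 10 CPM, a threshold chosen after the values were seen, in 4 of 90 libraries of the second sampling, 13 of 90 of the first and 3 of 10 SPF libraries. These 20 came from 11 groups, with 4 in cohort 4 day 12 and 3 in cohort 1 day 2. Of the 12 genes, Comp was the one read most widely, at 0 in 38 of 190 libraries. Matn3 had reads in 93 libraries, Acan in 88, Hapln1 in 82 and Sox9 in 71. The other 7 had reads in 8 to 40 libraries. The highest sum, 328 CPM, was in cohort 5 day 16 replicate 2, which also held the highest values of Col2a1 (18.1 CPM), Col6a1 (21.4 CPM), Col6a2 (24.6 CPM), Col11a1 (21.5 CPM) and Col6a3 (111.3 CPM). SPF day 44 replicate 3 followed with 185.3 CPM and held 5.21 CPM of Col2a1. Cohort 8 day 40 replicates 3 and 2 had 107.2 and 103.1 CPM, with 6.08 and 4.23 CPM of Col2a1 beside 0.449 and 2.73 CPM of Col1a1. The library with the most Col1a1, cohort 1 day 2 replicate 7, was not among the 20.

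Over 190 libraries the correlation with the cartilage sum was 0.70 for Col2a1, 0.69 for Col11a1, 0.61 for Col6a1 and −0.04 for Col6a3. A few libraries held a large part of the rarer genes' total. The highest library alone held 17.1% of the summed CPM of Col9a2, 12.98% of that of Col2a1, 11.5% of that of Col6a2 and 10.1% of that of Col6a1, but 1.60% of that of Col6a3 and 1.09% of that of Col6a4. The summed collagens reached 552.5 CPM in cohort 1 day 2 replicate 9, 494.5 CPM in replicate 7 of that group and 446.8 CPM in cohort 4 day 12 replicate 2. Leaving out the last of these changed no call of a named gene in the trend or between samplings, and the other 2 were not left out singly.

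**Figure D5:**
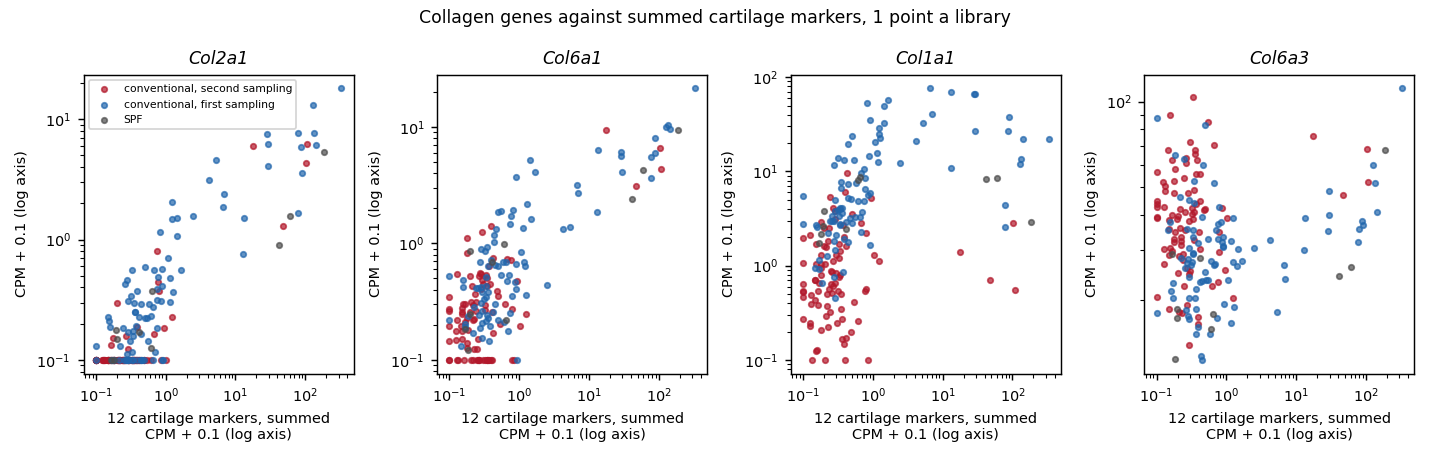
CPM + 0.1 of Col2a1, Col6a1, Col1a1 and Col6a3 against the summed CPM + 0.1 of 12 cartilage markers (log axes), with 1 point for each of 190 libraries, coloured as second sampling, first sampling and SPF. Col2a1 and Col6a1 rise in the libraries at the right, whereas Col1a1 exceeds 60 CPM at sums both under and over 10 CPM. Col6a3 shows little relation over all libraries. The library with the highest sum held 111.3 CPM of Col6a3, and the next, SPF day 44 replicate 3, held 67.2 CPM.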

How the data were processed

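Whole-blood RNA of 190 libraries was sequenced from TruSeq Stranded Total RNA libraries depleted of ribosomal and globin RNA, per the labels' protocols. The authors deposited expected counts and TPM per gene. DRAGEN and GRCm39 are named in the submitters' processing notes, without the version, the annotation, any filter or whether counting used strand. Of the deposited expected counts 2.86% were not whole, and all were rounded. The deposited TPM were used for levels between genes.

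Low genes were removed by edgeR's filterByExpr for the 20 groups, with a minimum count of 10 and a minimum total of 15. The rest were tested, after TMM scaling, by the two-sided robust quasi-likelihood test of edgeR 4.0.16 in R 4.3.3, with Benjamini-Hochberg adjustment over all 18192 genes. SE is the absolute log2 change divided by the square root of F. The trend used 90 libraries, the samplings 180 with cohort, day 16 and the changes between days 30, day 44 all 55 of that day, and the score slopes 90 and 60 with cohort. In simulated data, the edgeR fits of the trend, the samplings and the second-sampling score recovered most known changes of a single size. The SPF fits were simulated too but held to no set recovery. Changes in genes of few counts were not simulated. Alternatives were DESeq2 1.42.0, limma 3.58.1, RLE scaling, no filter, a replicate block, covariates, subsets of cohorts and libraries, and each SPF replicate left out.

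Called members were named, at most 10 a direction by size, with the 10 and 5 genes most like type I and Col10a1. In all 13 lists of related genes and cell types were counted. The members and lists were chosen with earlier results of these data known. The labels give replicate numbers at both samplings but no shared animal, and same-numbered libraries correlated at −0.494 to 0.726, over 0.1 in 44 of 95 pairs, so they were not taken as pairs. No column was left unused, no 2 libraries were identical, and the lowest chi-square per gene between libraries of a group was 16.7. Promoters came from RefSeq on GRCm38.p6. That build differs from the files' build, so no coordinates were converted. Intervals between libraries cover these libraries only.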

Additional observations from a re-analysis of the deposited data

Results flagged for a closer look

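Single libraries stood far from the rest of their group in 18 of 140 group values examined for the summed collagens, Col1a1, Col3a1, Col6a3, Col6a4, Col10a1 and Col2a1, or 12.9%. Chance flags about 1 in 20 groups where values follow a normal distribution. Most flags were for Col10a1 and Col2a1, mainly in groups whose other libraries had few or no reads. That rate does not hold in such groups, so the 12.9% cannot be read as an excess over chance. The summed CPM of the 44 genes was 147.5 in SPF day 44 replicate 3, with 62.1 in the next library. Col1a1 was lowest in SPF day 16 replicate 3, at 2.32 CPM, with 8.06 CPM in the next.

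Col10a1 had a single high library in 7 groups. Its value was 9.90 CPM in cohort 5 day 16 replicate 8, 0.130 in cohort 5 day 44 replicate 6, 0.161 in cohort 6 day 40 replicate 7, 0.171 in cohort 7 day 44 replicate 6, 0.649 in cohort 8 day 40 replicate 2, 0.104 in cohort 9 day 30 replicate 10 and 0.339 in cohort 9 day 44 replicate 2. Apart from the first, these are groups whose other libraries were at or near 0.

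Col2a1 had a single high library in 9 groups. It had 5.21 CPM in SPF day 44 replicate 3, 5.89 in cohort 6 day 40 replicate 6, 1.58 in cohort 6 day 19 replicate 1 and 1.19 in cohort 5 day 44 replicate 10, and each of these libraries is among the 20 with cartilage markers over 10 CPM. The others were 0.707 CPM in cohort 9 day 44 replicate 1, 0.343 in cohort 4 day 40 replicate 7, 0.276 in cohort 3 day 44 replicate 5, 0.0856 in cohort 9 day 30 replicate 8 and 0.0520 in cohort 1 day 44 replicate 8.

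The change between samplings differed between cohorts 1 to 4 and cohorts 6 to 9 by a direct test (edgeR) for 24 genes. The 10 largest differences, on the log2 scale, were those of Col10a1 (−6.84), Col11a1 (−5.23), Col6a2 (−4.38), Col24a1 (−4.06), Col6a1 (−3.53), Col16a1 (−3.14), Col12a1 (−2.98), Col22a1 (−2.86), Col4a4 (−2.73) and Col1a1 (−2.71). The value of Col10a1 rests in part on cohort 4, whose libraries of day 40 were all at 0.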

How the results depend on the processing

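RLE scaling changed none of 85 named gene calls. The trend's 33 calls became 19 with globin and mitochondrial rRNA covariates, 12 within cohorts 1 to 4, 0 within cohorts 6 to 9 and 20 at score 0, and the 31 between samplings became 8 within cohorts 6 to 9. Cohort 6's 1 call became 2 with DESeq2, 4 with limma and 2 with the share covariates, cohort 7's 9 became 5 with limma, and cohort 8's 0 became 1 with DESeq2, limma or the share covariates, 2 with muscle and keratinocyte covariates and 3 with the block. Day 16's 1 call became 2 with the share covariates and 0 to 1 without single SPF replicates. Day 44's 10 became 5 with DESeq2, which gave the other 5 no adjusted p, 5 in cohort 5 alone and 4 to 9 without single SPF replicates. Cohort 5's 17 became 9 with the share covariates. The score's 5 became 0 within cohorts 6 to 9 and 1 without scores 0 and 0.5. Where no share of all genes was given above, these counts stand without one. They cannot show whether collagens moved more than all genes did.

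Signs reversed for Col28a1 (−0.15) in the trend within cohorts 1 to 4, Col9a1 (0.069) in the trend within cohorts 6 to 9, Col2a1 (1.62) and Col11a1 (0.19) between samplings within cohorts 6 to 9, Col9a2 (0.32) in cohort 5 with the share covariates, and Col2a1 and Col6a2 on day 44 without SPF replicate 3. Leaving out single SPF replicates gave −4.51 to 0.69 for Col2a1 and −3.63 to 0.014 for Col6a2. The causes were not tested. With a replicate block the counts were 32 for the trend and 32 between samplings, 0 on day 16, 8 on day 44, 12 in cohort 5, 1 in SPF mice and 4 for the score. Except for SPF mice, these too are given without the share of all genes. Only 13 of 95 libraries correlated best with their own number, so the block pairs numbers and not known mice. Many rarer collagens had a few counts a library, which limits their precision.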
